A study of Homo sapiens with 14 samples.

Results

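The 37 genes of the human mitochondrial genome were chosen as the rows of the count table whose gene name starts with MT-, out of 36555 gene IDs in all. They are 13 mRNAs, 2 rRNAs and 22 tRNAs, and each class was analysed separately. The study set out to learn why the ferroptosis inhibitors ferrostatin-1 (Fer1) and liproxstatin-1 (Lip1), both radical-trapping antioxidants, differ in effect when tumour necrosis factor (TNF) drives apoptosis. HT-29, a wild-type line as labelled, comes from a human colorectal carcinoma. Poly(A) RNA was sequenced in 14 libraries of 6 groups: 2 of TNF with 20 uM Lip1 (TNF+Lip1), 3 of TNF with 20 uM Fer1 (TNF+Fer1), 2 of TNF alone (recombinant human TNF, labelled as 100 ug/ml), 2 of 20 uM Lip1 alone, 2 of 20 uM Fer1 alone, and 3 of control cells with 0.1% DMSO. Treatment lasted 72 h. The replicates are labelled technical, so p-values measure the spread between these libraries, and no biological replication is known to enter them.

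Human mitochondrial DNA is transcribed from both strands into long polycistronic precursors. The tRNAs lie between most of the rRNAs and mRNAs, and their excision by RNase P at the 5′ end and ELAC2 at the 3′ end releases the neighbouring RNAs. Most mitochondrial mRNAs gain poly(A) tails from the polymerase MTPAP and are stabilised by the LRPPRC-SLIRP complex, whereas mature tRNAs end in CCA. In poly(A) libraries a read over a tRNA gene can come from a tailed fragment, from a precursor that still holds a neighbouring RNA, or from a mature tRNA, and the counts cannot tell these apart. Of the members, 28 lie on the plus strand, and 9 on the minus strand, which are MT-ND6 and 8 tRNAs. The tRNA genes span 59 to 75 bases, less than the library inserts described in the labels' protocols. Nothing read here states how the counting treated strand, so reads of a tRNA gene and of transcripts from the opposite strand cannot be told apart.

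The tRNA genes below are those the results turn on, given 5′ to 3′ as DNA from the GENCODE v29 transcripts (GRCh38) with the anticodon in capitals. The first 5 have the widest range between libraries. MT-TM (ENSG00000210112, methionine) lies on the plus strand at MT:4402-4469, and MT-TQ (ENSG00000210107, glutamine) lies beside it on the minus strand at MT:4329-4400. MT-TV (ENSG00000210077, valine, plus strand, MT:1602-1670) fills the gap between the rRNA genes. MT-TD (ENSG00000210154, aspartate, plus strand, MT:7518-7585) ends where MT-CO2 begins. MT-TK (ENSG00000210156, lysine, plus strand, MT:8295-8364) lies 25 bases after MT-CO2 and just before MT-ATP8. MT-TN (ENSG00000210135, asparagine, minus strand, MT:5657-5729) has the highest level per kilobase of the tRNA genes in controls. MT-TH (ENSG00000210176, histidine, plus strand, MT:12138-12206) opens a run of 3 tRNA genes that continues with MT-TS2 and MT-TL2.
MT-TM: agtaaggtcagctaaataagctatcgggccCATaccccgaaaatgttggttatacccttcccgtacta
MT-TQ: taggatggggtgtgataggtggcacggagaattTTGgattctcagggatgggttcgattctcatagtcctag
MT-TV: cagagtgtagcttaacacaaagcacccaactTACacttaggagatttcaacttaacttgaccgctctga
MT-TD: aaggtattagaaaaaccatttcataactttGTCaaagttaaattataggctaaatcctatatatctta
MT-TK: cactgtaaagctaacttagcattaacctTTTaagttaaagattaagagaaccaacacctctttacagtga
MT-TN: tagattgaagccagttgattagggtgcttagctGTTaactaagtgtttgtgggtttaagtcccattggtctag
MT-TH: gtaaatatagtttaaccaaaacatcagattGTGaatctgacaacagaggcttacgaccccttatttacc
Their GC content ranged from 23.53% in MT-TD to 48.61% in MT-TQ.

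Library totals ran from 59913850 to 75838597 counts, and mitochondrial genes took 4.48% to 6.06% of them. Levels are given in CPM, counts scaled to the effective library size. The epithelial keratin KRT8 was at 4788 to 7362 CPM in every library and the leukocyte gene PTPRC at no more than 0.0551 CPM, while the intestinal factor CDX1 was at or near 0. Of the other markers of non-epithelial cells, CD68 was at 7.10 to 21.1 CPM, and COL1A1 and VWF reached 23.3 and 29.1 CPM; their part in the results was not tested. The 2 TNF libraries stood further apart than any other pair of replicates, with a chi-square of 203 per degree of freedom over genes, against 14.9 to 74.3 within other groups. TNF library 1 also stood apart in MALAT1, a nuclear RNA, at 50.4 CPM against 208 CPM in TNF library 3. MALAT1 was at 328 to 405 CPM in TNF+Fer1 and TNF+Lip1 and at 204 to 228 CPM in the libraries without TNF, and its part in the results was not tested. Nuclear copies of mitochondrial genes can take reads from the members: 95 were listed, 7 with at least 1000 counts over all libraries. Counts on the 95 came to 1.69% to 1.99% of those on the 13 mRNAs, but they were spread unevenly. MTATP6P1 had 0.140 to 0.165 times the counts of MT-ATP6. MTND2P28 had 8536 to 17863 counts, against 132883 to 317294 on MT-ND2. The part of these copies in the results was not tested.

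The share of counts taken by mitochondrial mRNAs was lower in all 7 libraries with TNF than in the 3 controls. It averaged 4.48% ± 0.272 in TNF+Lip1 (SD, n = 2), 4.32% ± 0.180 in TNF+Fer1 (SD, n = 3) and 4.51% ± 0.202 in TNF (SD, n = 2). It averaged 4.88% ± 0.317 in Lip1 (SD, n = 2), 5.04% ± 0.0809 in Fer1 (SD, n = 2) and 5.29% ± 0.263 in controls (SD, n = 3). The mean rRNA share was also lower in the groups with TNF than in the others, but those groups stood in reverse order. It was 0.226% ± 0.0259 in TNF (SD, n = 2), 0.259% ± 0.0219 in TNF+Lip1 (SD, n = 2) and 0.290% ± 0.0190 in TNF+Fer1 (SD, n = 3). It was 0.298% ± 0.0111 in Lip1 (SD, n = 2), 0.369% ± 0.0168 in Fer1 (SD, n = 2) and 0.414% ± 0.0464 in controls (SD, n = 3). The tRNA share ran otherwise: it was highest in Lip1 (0.0844% and 0.0900%) and averaged 0.0580% ± 0.00157 in TNF+Fer1 (SD, n = 3), while controls held 0.0575% to 0.0752%. Shares move with every other gene of the library, and in bulk RNA fewer cells of a kind and less mitochondrial RNA per cell cannot be told apart.

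**Figure D1:**
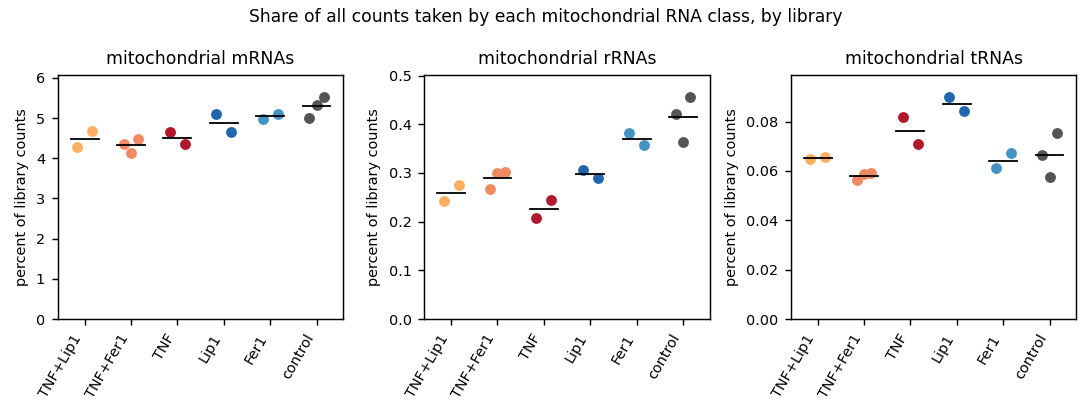
Percent of all library counts on the 13 mRNAs, 2 rRNAs and 22 tRNAs of mitochondrial DNA, 1 point per library in 6 groups, with the group mean as a line. The mRNA share of the libraries with TNF lies at 4.12% to 4.67%, below the controls at 5.01% to 5.53%, and the tRNA share is highest in Lip1.

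On the scale of CPM per kilobase of gene, levels in controls spanned 15.7 (MT-TW) to 9660 (MT-CO1). The first 10 places were held by mRNAs, led by MT-CO1, the catalytic core of cytochrome c oxidase, with MT-CO3, another subunit of that enzyme, next at 6884 CPM per kilobase. MT-RNR2, the 16S rRNA, was at 2190 CPM per kilobase, and the most counted tRNA gene, MT-TN, at 1630. MT-ND3, a complex I subunit, was the lowest mRNA at 532, below MT-ND6 at 974, the complex I subunit encoded on the minus strand. MT-CO1 made up 27.8% ± 1.66 of mitochondrial mRNA counts in controls (SD, n = 3). Levels of rRNAs, tRNAs and mRNAs, MT-ND6 among them, are those left after poly(A) selection.

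Some tRNA genes spread far more between libraries than any mRNA or rRNA, and others did not. From the lowest to the highest of the 14 libraries, mRNA levels ranged 1.27-fold (MT-CO1) to 2.69-fold, rRNA levels 2.44-fold and 2.59-fold, and tRNA levels 1.49-fold to 53.7-fold (MT-TM), with a median of 2.78-fold. MT-TK ranged 34.4-fold, MT-TQ 27.7-fold, MT-TV 23.1-fold and MT-TD 20.1-fold. The same genes were uneven among controls, where 7 tRNAs had a coefficient of variation above 30% while no mRNA exceeded 19.9%. Control library 2 was the low one: MT-TM was at 63.8, 17.7 and 78.8 CPM in control libraries 1, 2 and 3. The sum of 389 nuclear snoRNA genes under 150 bases, a set chosen after values were seen, ranged 1.61-fold. It was at 11.9 to 13.1 CPM in TNF+Lip1 and TNF+Fer1 and at 9.61 and 10.2 CPM in TNF, against 12.9 to 15.4 CPM in the libraries without TNF, and its part in the tRNA results was not tested.

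TNF lowered mitochondrial rRNAs and part of the mRNAs. Against control, 6 of 13 mRNAs fell and 0 rose, both rRNAs fell, and 5 of 22 tRNAs rose while 0 fell, by edgeR's quasi-likelihood test at an adjusted p below 0.05 over 22179 genes. The test called 14.7% of all genes, 6.44% as lower and 8.24% as higher. The median log2 fold change of the mRNAs was -0.25, with 11 of 13 below 0, against -0.02 over all genes. When the 5 libraries compared were fitted alone, 0 mRNAs, 1 rRNA and 0 tRNAs were called, with 397 genes called in all.

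MT-RNR2 had 1580.0 and 1928 CPM in the TNF libraries, against 3454, 2933 and 3857 CPM in controls. The groups did not overlap, as in 40.6% of all genes, and the log2 fold change was -0.96 ± 0.12 (SE, edgeR adjusted p = 0.000369). MT-RNR1, the 12S rRNA of the small mitochondrial ribosomal subunit, had 471 and 469.6 CPM in TNF and 846, 646 and 916 CPM in controls (log2 -0.77 ± 0.13, edgeR adjusted p = 0.00284). MT-CO3 had 3691 and 3421 CPM in TNF and 5247, 5005 and 5938 CPM in controls. Both TNF libraries lay below every control, and the log2 fold change was -0.60 ± 0.07 (edgeR adjusted p = 0.000284). MT-ATP6 and MT-ATP8, subunits of ATP synthase with overlapping genes, fell by 0.52 and 0.54 on the log2 scale. MT-CO2, MT-ND4L and MT-CO1 fell by 0.43, 0.35 and 0.21. MT-ND6 was at 505 and 519 CPM in TNF, within the 439 to 573 CPM of controls. When single libraries were left out, 3 to 5 mRNAs were called, 3 of them without TNF library 1, and MT-CO1 lost its call each time, MT-ND4L in 4 of 5 cases and MT-CO2 without TNF library 1.

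Among the tRNAs, 4 neighbouring genes of the minus strand rose together: MT-TA, MT-TN, MT-TC and MT-TY, which serve alanine, asparagine, cysteine and tyrosine. MT-TN had 173 and 156 CPM in TNF, against 118, 111 and 128 CPM in controls, with no overlap (log2 0.46 ± 0.09, edgeR adjusted p = 0.00648). MT-TC had 116 and 103 CPM in TNF and 78.1, 76.4 and 82.4 CPM in controls (log2 0.47 ± 0.09, edgeR adjusted p = 0.00447). MT-TN kept a nearly fixed proportion to MT-TA, at 1.61 to 1.69 times its counts in all 14 libraries. The fifth tRNA, MT-TG for glycine, had 11.7 and 16.8 CPM in TNF and 9.36, 9.71 and 8.32 CPM in controls (log2 0.64 ± 0.15, edgeR adjusted p = 0.0156). MT-TK was at 10.5 and 5.84 CPM in TNF and 13.4, 5.96 and 18.4 CPM in controls. These overlap at the low end and the difference did not pass the test. Leaving out single libraries, 4 to 11 tRNAs were called, 11 of them without control library 2. MT-TY lost its call without control library 1 or TNF library 1, and MT-TG without control library 3 or TNF library 3, where its log2 fold change was 0.36.

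**Figure D2:**
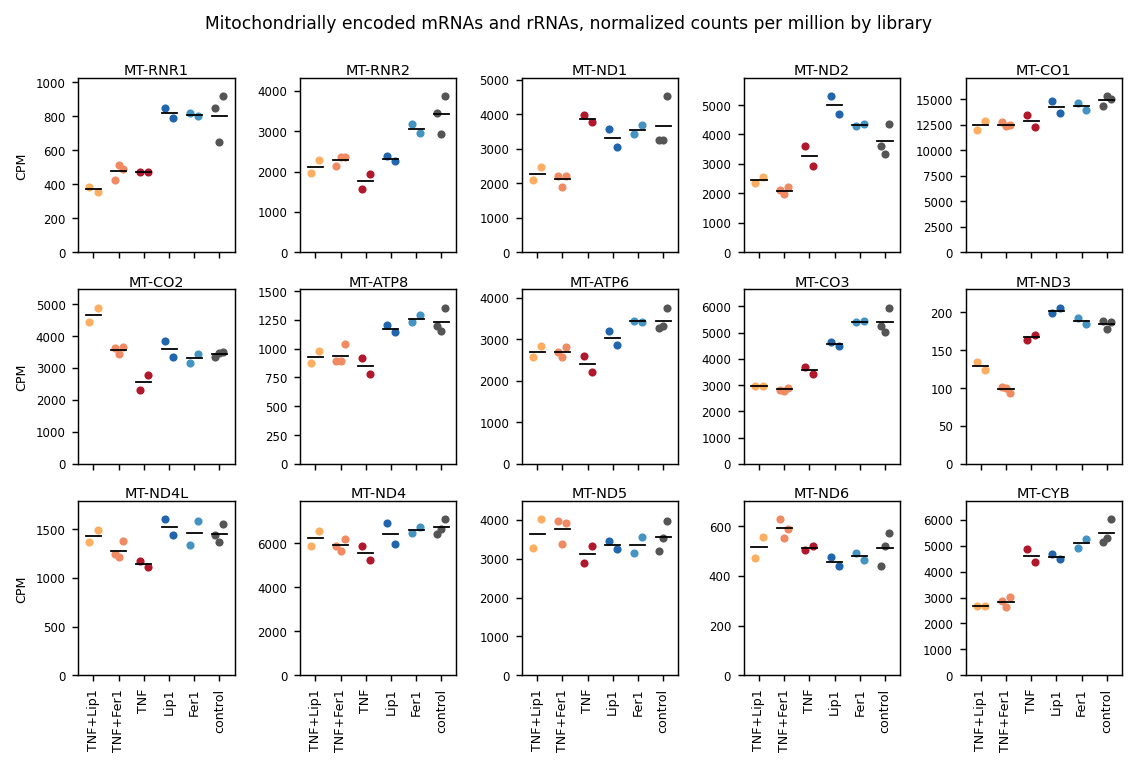
Normalized CPM of the 13 mRNAs and 2 rRNAs in map order, 1 point per library with the group mean as a line, on axes that start at 0. Both rRNAs and MT-CO3 lie lower in TNF than in controls, MT-CYB, MT-ND1, MT-ND2 and MT-ND3 lie lowest in TNF+Fer1 and TNF+Lip1, and MT-CO2 lies highest in TNF+Lip1.

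Neither compound alone changed an mRNA or rRNA past the threshold in edgeR. For Fer1 against control edgeR called 0 of 13 mRNAs and 0 of 2 rRNAs, 0 of either had an unadjusted p below 0.05, and DESeq2 called 0 of either. The share of all genes with an unadjusted p below 0.05 was not computed, here or in the comparisons below. One tRNA, MT-TY, fell, where 0.564% of all genes were called and 0.379% as lower. It had 75.1 and 75.2 CPM in Fer1, against 101, 105 and 109 CPM in controls. The groups did not overlap, as in 35.3% of all genes, and the log2 fold change was -0.49 ± 0.09 (edgeR adjusted p = 0.0318). The call held without control library 3 and was lost without each of the other 4 libraries, with log2 fold changes of -0.51 to -0.46. MT-TY was also low in Lip1, at 76.3 and 69.0 CPM (log2 -0.54), which edgeR did not call. Its neighbours MT-TA, MT-TN and MT-TC lay below every control in both Fer1 and Lip1, without a call. Groups did not overlap in 35.3% of all genes for Fer1 and 35.7% for Lip1. MT-TK was at 21.6 and 24.0 CPM in Fer1, above the 5.96 to 18.4 CPM of controls, which did not pass the test (log2 0.86 ± 0.36, edgeR adjusted p = 0.363).

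Lip1 alone raised MT-TK, the only member that edgeR called against control, where 0.0586% of all genes were called and 0.0541% as higher. MT-TK had 107 and 91.6 CPM in Lip1, against 13.4, 5.96 and 18.4 CPM in controls. Both Lip1 libraries lay far above every control, without overlap as in 35.7% of all genes, and the log2 fold change was 2.98 ± 0.37, or 7.90-fold (edgeR adjusted p = 0.0193). With 1 library left out the log2 fold change was 2.64 to 3.36 and the adjusted p 0.0100 to 0.176; the call was lost without control library 1, Lip1 library 1 or Lip1 library 3. It was also lost when the 5 libraries were fitted alone, at an edgeR adjusted p of 0.122. The upstream neighbour MT-CO2 had 3833 and 3338 CPM in Lip1 and 3342, 3456 and 3496 CPM in controls, so the count of MT-TK relative to MT-CO2 was 0.0280 at its highest, in Lip1. Of 22 tRNAs, 18 had a log2 fold change above 0, and the median was 0.46, against -0.02 over all genes. While edgeR called 1 of them, 15 had an unadjusted p below 0.05, 11 of these higher. DESeq2 called 11 of the 22 tRNAs, of which 7 were higher, among 495 genes in all. Without the share of all genes at the unadjusted limit, the 15 cannot be set against the background. For mRNAs edgeR called 0, 3 had an unadjusted p below 0.05 and DESeq2 called 0. For rRNAs edgeR called 0, 1 had an unadjusted p below 0.05 and DESeq2 called 1. MT-RNR2 had 2379 and 2261 CPM in Lip1, against 3454, 2933 and 3857 CPM in controls (log2 -0.56).

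Without TNF, Lip1 against Fer1 gave 2 called members, the tRNAs MT-TT (threonine) and MT-TG, both higher in Lip1, where 0.104% of all genes were called, 0.0857% as higher and 0.018% as lower. MT-TT had 14.4 and 16.5 CPM in Lip1, against 5.95 and 6.58 CPM in Fer1 (log2 1.30 ± 0.18, edgeR adjusted p = 0.0254). MT-TG had 16.5 and 15.7 CPM in Lip1, against 8.07 and 7.49 CPM in Fer1 (log2 1.05 ± 0.17, edgeR adjusted p = 0.0476). The groups did not overlap, as in 42.2% of all genes, but leaving out any 1 of the 4 libraries ended both calls. MT-TK had 107 and 91.6 CPM in Lip1 and 21.6 and 24.0 CPM in Fer1, a log2 difference of 2.13 with a 95% interval of 1.21 to 3.04 that did not pass the adjusted test (edgeR adjusted p = 0.104). Of 22 tRNAs, 19 had a log2 fold change above 0, with a median of 0.57 against -0.01 over all genes. The median was 0.72 over the 14 plus-strand tRNAs and 0.06 over the 8 on the minus strand. DESeq2 called 7 tRNAs, among 199 genes in all. For mRNAs, and likewise for rRNAs, edgeR called 0, 1 had an unadjusted p below 0.05 and DESeq2 called 0.

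Fer1 added to TNF lowered part of the tRNAs, with a count that depended on single libraries. In TNF+Fer1 against TNF, 12 of 22 tRNAs fell and 0 rose, where 5.52% of all genes were called and 3.75% as lower. All 22 had a log2 fold change below 0, with a median of -0.77 against -0.01 over all genes, and in all 22 the groups did not overlap, as in 43.4% of all genes. MT-TM had 3.68, 3.44 and 3.68 CPM in TNF+Fer1, against 40.5 and 19.8 CPM in TNF (log2 -3.06 ± 0.51, edgeR adjusted p = 0.0119). The 3 TNF+Fer1 libraries were close to each other and the TNF libraries were not. MT-TD had 1.52, 1.69 and 1.48 CPM in TNF+Fer1 and 12.4 and 8.56 CPM in TNF (log2 -2.74 ± 0.35, edgeR adjusted p = 0.00406). MT-TG had 6.74, 7.14 and 6.55 CPM in TNF+Fer1 and 11.7 and 16.8 CPM in TNF (log2 -1.07 ± 0.15, edgeR adjusted p = 0.00687).

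MT-TH, MT-TS2 and MT-TL2, which follow each other on the map, fell by 0.78, 0.79 and 0.75 on the log2 scale and had similar counts in each library, with MT-TS2 at 0.951 to 1.08 times MT-TH. MT-TK had 4.15, 3.13 and 3.51 CPM in TNF+Fer1 and 10.5 and 5.84 CPM in TNF, which did not pass the test (log2 -1.19 ± 0.38, edgeR adjusted p = 0.0752). Of the 14 plus-strand tRNAs 10 fell, and of the 8 on the minus strand 2 did. Leaving out TNF+Fer1 library 1, 2 or 3 gave 5, 2 and 2 called tRNAs, among 191, 69 and 103 genes in all. Leaving out a TNF library also moved the count, but leaves 1 library in that group, so those counts are not compared here. MT-TD and MT-TG were called each time, and MT-TM in 2 of 5 cases. When the 5 libraries were fitted alone, 1 tRNA and 0 mRNAs were called, with 11 genes called in all.

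**Figure D3:**
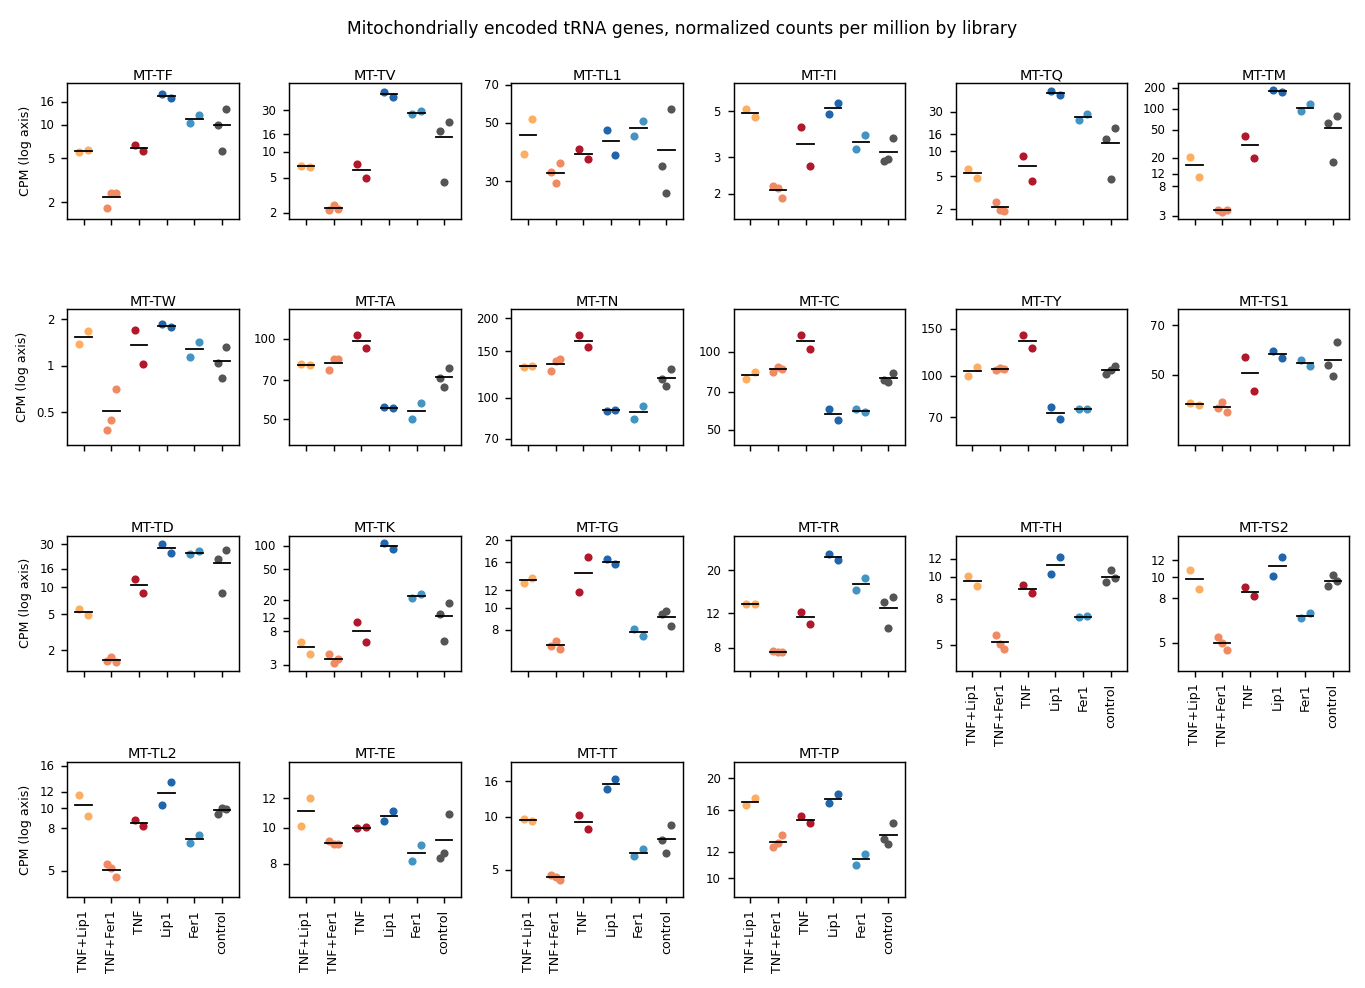
Normalized CPM of the 22 tRNA genes in map order on log axes, 1 point per library, with the group mean as a line. TNF+Fer1 libraries lie lowest for MT-TM, MT-TD, MT-TV and MT-TQ, Lip1 libraries lie highest for MT-TK, and MT-TA, MT-TN, MT-TC and MT-TY share a pattern with their highest values in TNF.

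In TNF+Fer1 against TNF, the mRNAs MT-ND1, MT-ND2, MT-ND3, MT-CO3 and MT-CYB fell and MT-CO2 rose, so 5 of 13 were lower and 1 higher, where 3.75% and 1.77% of all genes were. MT-ND3 had 101, 99.5 and 93.9 CPM in TNF+Fer1, against 164 and 169.9 CPM in TNF (log2 -0.76 ± 0.08, edgeR adjusted p = 0.00120). MT-CYB, the complex III subunit of the mitochondrial genome, had 2879, 2628 and 3006 CPM in TNF+Fer1 and 4876 and 4359.7 CPM in TNF (log2 -0.70 ± 0.08, edgeR adjusted p = 0.00381). For both genes the groups lay apart. MT-ND1, a complex I subunit, had 2224, 1900.4 and 2214 CPM in TNF+Fer1 and 3964 and 3772 CPM in TNF (log2 -0.87 ± 0.14, edgeR adjusted p = 0.0108). MT-ND6 had 628, 554 and 591 CPM in TNF+Fer1 and 505 and 519 CPM in TNF, which did not pass the test (log2 0.21 ± 0.11, edgeR adjusted p = 0.261). For rRNAs edgeR called 0, 1 had an unadjusted p below 0.05 and DESeq2 called 1, among 3981 genes in all. Leaving out TNF+Fer1 library 1, 2 or 3 gave 3, 2 and 3 called mRNAs, among 191, 69 and 103 genes in all. Leaving out a TNF library leaves 1 library in that group, so those counts are not compared here. MT-ND3 and MT-CYB were called each time, while MT-CO2, MT-ND2 and MT-CO3 each kept the call in 1 of 5 cases.

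Lip1 added to TNF changed MT-CO2 and MT-CYB. In TNF+Lip1 against TNF, which uses the same TNF libraries, 1 of 13 mRNAs rose and 1 fell, where 0.343% of all genes were called, 0.239% as higher and 0.104% as lower. MT-CO2, a subunit of cytochrome c oxidase, had 4436 and 4881 CPM in TNF+Lip1, against 2317 and 2789 CPM in TNF. These were the highest MT-CO2 levels of the 14 libraries, and the log2 fold change was 0.87 ± 0.10 (edgeR adjusted p = 0.00643). MT-CYB had 2689 and 2667 CPM in TNF+Lip1 and 4876 and 4359.7 CPM in TNF (log2 -0.79 ± 0.09, edgeR adjusted p = 0.00757). Of 22 tRNAs edgeR called 0, 6 had an unadjusted p below 0.05 and DESeq2 called 3, among 2440 genes in all. The median log2 fold change of the 22 tRNAs was -0.03. For rRNAs edgeR called 0, 1 had an unadjusted p below 0.05 and DESeq2 called 0. With 1 library left out, log2 fold changes were 0.74 to 1.01 for MT-CO2 and -0.86 to -0.70 for MT-CYB. Each such fit leaves 1 library in a group, and counts of calls without a TNF library are not compared here. Without TNF+Lip1 library 1 the count was 1 mRNA, and without TNF+Lip1 library 2 it was 0, as it was when the 4 libraries were fitted alone.

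The compounds also differed in tRNA levels in the presence of TNF. In TNF+Lip1 against TNF+Fer1, 8 of 22 tRNAs were higher and 0 lower, where 0.766% of all genes were called, 0.681% as higher and 0.0857% as lower. The 8 were MT-TI, MT-TD, MT-TG, MT-TR, MT-TH, MT-TS2, MT-TL2 and MT-TT, all on the plus strand, with log2 fold changes of 0.82 to 1.77. MT-TH had 10.0 and 9.13 CPM in TNF+Lip1, against 5.51, 5.05 and 4.77 CPM in TNF+Fer1, with no overlap as in 33.9% of all genes (log2 0.91 ± 0.13, edgeR adjusted p = 0.0102). MT-TD had 5.70 and 4.98 CPM in TNF+Lip1 and 1.52, 1.69 and 1.48 CPM in TNF+Fer1 (log2 1.77 ± 0.35, edgeR adjusted p = 0.0439). The median log2 fold change was 1.06 over the 14 plus-strand tRNAs and 0.00 over the 8 on the minus strand. Without TNF, in Lip1 against Fer1, these medians were 0.72 and 0.06. MT-TK had 5.89 and 4.14 CPM in TNF+Lip1 and 4.15, 3.13 and 3.51 CPM in TNF+Fer1, with a 95% interval on the log2 difference of -0.35 to 1.31 (edgeR adjusted p = 0.893).

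One mRNA, MT-ND3, was higher in TNF+Lip1, at 134 and 123 CPM, against 101, 99.5 and 93.9 CPM in TNF+Fer1 (log2 0.39 ± 0.08, edgeR adjusted p = 0.0425). For rRNAs edgeR called 0, 1 had an unadjusted p below 0.05 and DESeq2 called 0. With 1 library left out, 4 tRNAs were called without TNF+Fer1 library 1, 2 without TNF+Lip1 library 2, and 0 without TNF+Fer1 library 2, TNF+Fer1 library 3 or TNF+Lip1 library 1. MT-ND3 lost its call each time, and also with RLE scaling or with no filter on low counts.

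TNF in cells given a compound lowered part of the mRNAs, MT-RNR1 and part of the tRNAs. The groups compared hold neither TNF alone nor controls, though all 6 groups share 1 estimate of the spread. In TNF+Fer1 against Fer1, 7 mRNAs fell and 0 rose, both rRNAs fell, and 11 tRNAs fell and 4 rose, where 18.1% of all genes were called, 9.36% as lower and 8.76% as higher. In TNF+Lip1 against Lip1, 5 mRNAs fell and 1 rose, MT-RNR1 fell, and 9 tRNAs fell and 4 rose, where 14.6% of all genes were called, 7.03% as lower and 7.57% as higher. MT-RNR2 did not pass the test with Lip1 (log2 -0.13 ± 0.13, edgeR adjusted p = 0.598). It had 1952 and 2288 CPM in TNF+Lip1, against 2379 and 2261 CPM in Lip1. Both Lip1 libraries already lay below the 2933 to 3857 CPM of controls. The median log2 fold change of the mRNAs was -0.35 with Fer1 and -0.19 with Lip1, against 0.02 and 0.06 over all genes. In both comparisons the 4 tRNAs that rose were MT-TA, MT-TN, MT-TC and MT-TY. These rises start from levels in Fer1 and Lip1 that lay below controls. MT-TY averaged 75.1 CPM in Fer1 and 72.6 CPM in Lip1, and 106 CPM in TNF+Fer1 and 104 CPM in TNF+Lip1. Controls averaged 105 CPM. MT-TN averaged 135 CPM in TNF+Fer1 and 132 CPM in TNF+Lip1, against 119 CPM in controls.

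MT-TM had 3.68, 3.44 and 3.68 CPM in TNF+Fer1, against 92.7 and 116 CPM in Fer1 (log2 -4.85 ± 0.53, edgeR adjusted p = 0.000106). It had 20.9 and 10.8 CPM in TNF+Lip1, against 185 and 172 CPM in Lip1 (log2 -3.49 ± 0.59, edgeR adjusted p = 0.00245). MT-TK had 5.89 and 4.14 CPM in TNF+Lip1, against 107 and 91.6 CPM in Lip1 (log2 -4.31 ± 0.46, edgeR adjusted p = 0.000172). The groups lay far apart in each case. All 22 tRNAs did not overlap between TNF+Fer1 and Fer1, as in 54.7% of all genes. Between TNF+Lip1 and Lip1, 16 of 22 did not overlap, as in 62.5% of all genes. MT-CO3 had 2823, 2788 and 2903 CPM in TNF+Fer1 and 5415 and 5421 CPM in Fer1 (log2 -0.93 ± 0.07, edgeR adjusted p = 8.74e-06). It had 2947 and 2961 CPM in TNF+Lip1 and 4633 and 4474 CPM in Lip1 (log2 -0.62 ± 0.08, edgeR adjusted p = 0.000567). MT-ND2, a complex I subunit, fell by 1.04 with Fer1 and by 1.03 with Lip1 on the log2 scale. MT-ND6 did not pass the test in TNF+Fer1 against Fer1, at 628, 554 and 591 CPM in TNF+Fer1 and 493 and 463 CPM in Fer1 (log2 0.31 ± 0.11, edgeR adjusted p = 0.0886). With 1 library left out, TNF+Fer1 against Fer1 kept 5 to 7 mRNAs and 11 or 12 tRNAs, and MT-RNR2 lost its call each time. TNF+Lip1 against Lip1 kept 4 or 5 mRNAs and 8 or 9 tRNAs, with 8 tRNAs without Lip1 library 3 or TNF+Lip1 library 2, and MT-CO2 kept its call in 1 of 4 cases.

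**Figure D4:**
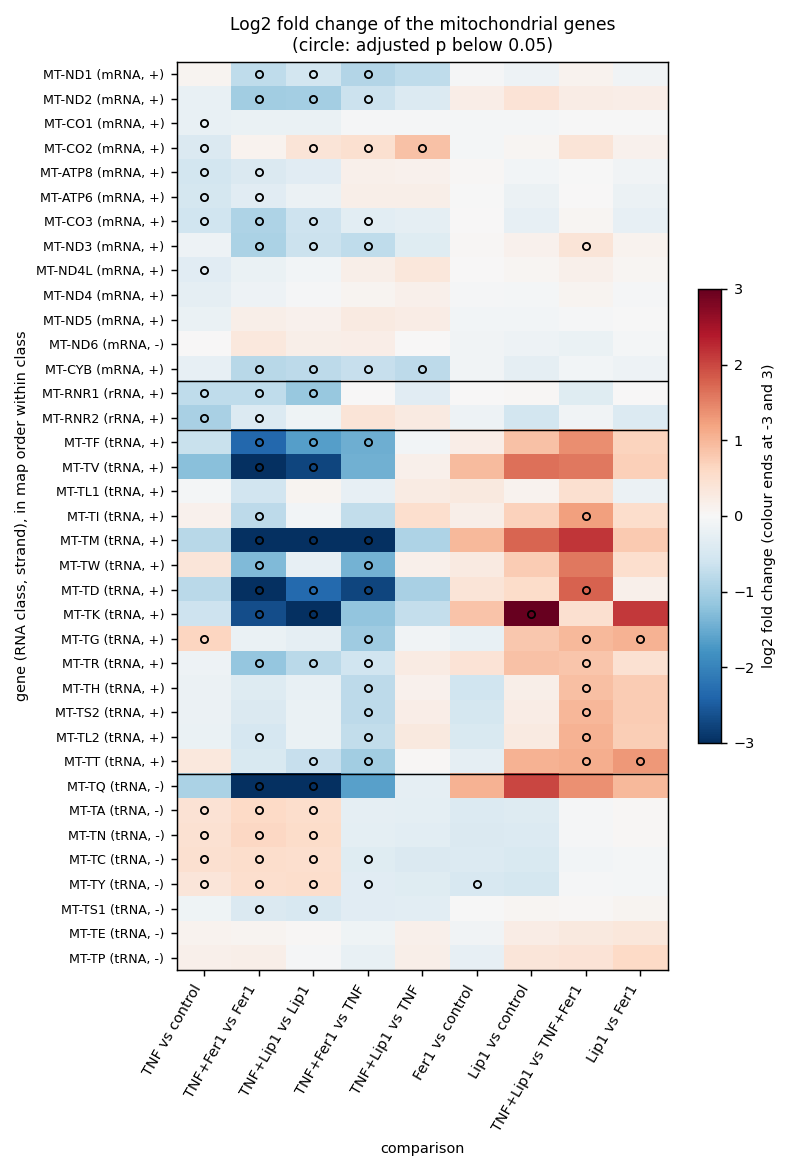
Log2 fold change of each mitochondrial gene (rows, by class and strand) in 9 comparisons (columns), the group named first over the one named second; circles mark an adjusted p below 0.05, and colours end at -3 and 3. MT-TM, MT-TV, MT-TQ, MT-TD and MT-TK are among the lowest where TNF was added to a compound, and MT-TA, MT-TN, MT-TC and MT-TY are higher in the 3 comparisons of TNF with no TNF.

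Whether a compound changed the response to TNF was tested as an interaction, and no member passed for either compound. For Fer1, edgeR called 0 of 37 members, where 0.00451% of all genes were called. There 6 mRNAs, 1 rRNA and 11 tRNAs had an unadjusted p below 0.05. DESeq2 called 5 mRNAs, 0 rRNAs and 10 tRNAs, among 1309 genes in all. MT-ND3 (log2 -0.80 ± 0.11, edgeR adjusted p = 0.0502) and MT-TD (log2 -3.14 ± 0.48, edgeR adjusted p = 0.0502) came closest. With RLE scaling, or with a stricter filter on low counts, 1 mRNA and 1 tRNA were called. For Lip1, edgeR called 0 of 37 members, where 0% of all genes were called. There 6 mRNAs, 1 rRNA and 9 tRNAs had an unadjusted p below 0.05. DESeq2 called 4 mRNAs, 1 rRNA and 6 tRNAs, among 1193 genes in all. MT-TK came closest (log2 -3.69 ± 0.56, edgeR adjusted p = 0.0754), followed by MT-CO2 (log2 0.80 ± 0.13, edgeR adjusted p = 0.0859). With 1 library left out, the log2 interaction for Fer1 was -0.83 to -0.75 for MT-ND3 and -3.46 to -2.78 for MT-TD. For Lip1 it was -4.07 to -3.21 for MT-TK and 0.68 to 0.95 for MT-CO2. Leaving out a TNF library leaves 1 library in that group, so counts of calls are not compared there. Without control library 2, 1 mRNA and 3 tRNAs were called for Fer1, among 38 genes in all, and 1 tRNA for Lip1, among 18. Without control library 3, 3 mRNAs and 1 tRNA were called for Fer1, among 27 genes.

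Nuclear genes that act on mitochondrial RNA were read from 4 lists, all of whose genes were tested. The 17 genes of mtDNA maintenance and transcription had a median log2 fold change of -0.15 in TNF against control. In TNF+Fer1 against Fer1, 1 of the 17 rose (MGME1) and 1 fell (TOP1MT), where 8.76% and 9.36% of all genes did. In TNF+Lip1 against Lip1, 0 rose and 2 fell (TWNK and TOP1MT), where 7.57% and 7.03% of all genes did. Each of these lost its call in at least 4 cases with a library left out. POLRMT, the mitochondrial RNA polymerase, was at 92.5 and 87.7 CPM in TNF and 70.9, 82.3 and 74.6 CPM in controls. Of 15 genes of RNA stability and decay, 1 was called in TNF against control, where 14.7% of all genes were, 6.44% as lower. This gene, LRPPRC, fell, at 44.9 and 157 CPM in TNF, against 281, 239 and 274 CPM in controls (log2 -1.39 ± 0.35, edgeR adjusted p = 0.0232). With 1 library left out its log2 fold change was -2.56 to -0.75, the smallest change without TNF library 1, and the call was lost without control library 1 or 3. TFAM, which packages mtDNA, was at 38.2 and 90.6 CPM in TNF and 84.7, 92.7 and 84.9 CPM in controls. PNPT1, a mitochondrial exoribonuclease, was at 38.1 and 86.9 CPM in TNF and 71.9, 55.0 and 77.6 CPM in controls. TNF library 1 was thus low for LRPPRC, TFAM and PNPT1, and its part in these values was not tested.

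Of 30 genes of RNA processing and tRNA maturation, PRORP rose and MTO1 and TRNT1 fell in TNF against control, where 14.7% of all genes were called. PRORP, the nuclease subunit of mitochondrial RNase P, had 24.9 and 20.6 CPM in TNF and 14.0, 11.0 and 11.3 CPM in controls (log2 0.91 ± 0.22, edgeR adjusted p = 0.0186). Its call was kept in 2 of 5 cases with a library left out. MTO1, an enzyme of tRNA modification, had 13.9 and 21.8 CPM in TNF and 29.3, 22.6 and 31.4 CPM in controls, and kept its call in 2 of 5 cases, with log2 fold changes of -0.99 to -0.35. TRNT1, which adds CCA to tRNAs, had 6.63 and 15.6 CPM in TNF and 21.8, 20.5 and 19.9 CPM in controls, and kept its call in 1 of 5 cases, with log2 fold changes of -1.64 to -0.41. For both, TNF library 1 was the lower one and the change was smallest without it. PRORP also rose in TNF+Fer1 against Fer1 and in TNF+Lip1 against Lip1, by 0.91 and 1.09 on the log2 scale. In those comparisons 3 of the 30 genes rose and 4 fell with Fer1, where 8.76% and 9.36% of all genes did, and 2 rose and 5 fell with Lip1, where 7.57% and 7.03% did. PUS1, a pseudouridine synthase of tRNAs, had 38.4, 37.2 and 35.6 CPM in TNF+Fer1 and 65.6 and 62.5 CPM in Fer1 (log2 -0.79 ± 0.12, edgeR adjusted p = 0.000786). In Lip1-treated cells it had 40.8 and 37.7 CPM in TNF+Lip1 and 62.8 and 64.9 CPM in Lip1 (log2 -0.70 ± 0.13, edgeR adjusted p = 0.00429). In TNF+Fer1 against TNF, 1.77% of all genes were called as higher and 3.75% as lower. There 1 of the 15 genes of RNA stability and decay rose (MTPAP, by 0.73 on the log2 scale) and 1 fell (FASTK). Of the 30 genes, 1 fell (DDX28). Each kept its call in 1 of 5 cases with a library left out. Of 10 regulators of mitochondrial biogenesis, MYC fell in TNF+Lip1 against Lip1, where 14.6% of all genes were called, and its call was kept in 0 of 4 cases with a library left out.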

How the data were processed

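Per the labels' protocols, libraries were stranded (dUTP), paired-end and made from oligo-dT selected RNA. The authors deposited 1 raw count per gene and library, with 36555 gene IDs and 14 libraries, beside 14 columns of normalized values that stayed out. The tools are listed without role or order in the submitters' processing notes: StringTie 1.3.4d, HISAT2 2.0.4, cutadapt 1.9, DESeq2 and edgeR. The sources used here name no genome build, annotation, counting program or strand option; all 37 members lie at their GENCODE v29 (GRCh38) positions.

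Counts were analysed with edgeR 4.0.16 in R 4.3.3: TMM scaling, filterByExpr (22179 genes kept, 37 of 37 members), 1 model of 6 groups, quasi-likelihood tests for 11 comparisons and Benjamini-Hochberg adjustment at 0.05 over all genes. The standard error is the absolute log2 fold change over the root of F. Library totals of 59913850 to 75838597 counts gave at least 24 counts for each member. Alternatives were RLE scaling, other filters, library sizes without mitochondrial genes, a replicate block, the compared groups alone, DESeq2 1.42.0 and each library left out in turn. The model was checked on simulated data, where it missed most changes of 1.5-fold or 2-fold. A member that was not called may therefore still have changed. Libraries are named by the number in their count column; in Fer1, Lip1 and TNF these are 1 and 3 where titles say 1 and 2, so those columns were matched by group only. The design text speaks of 3 replicates a group, and the reason for 2 in 4 groups is not known. Full values were meant for up to 6 called members per comparison by smallest p, the highest gene of each class per kilobase, MT-ND6, MT-TK, and POLRMT, TFAM, LRPPRC, PNPT1 and up to 4 called genes of each nuclear list; other members are given by range or count. The members and lists were chosen with earlier results of these data known.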

Additional observations from a re-analysis of the deposited data

How the results depend on the processing

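No called result changed sign under any setting run. Counts of calls that moved by over 1.5 times are given here, over all genes or by class of mitochondrial RNA. Fitted on the compared groups alone, the test called 397 genes, 0 mRNAs, 1 rRNA, 0 tRNAs for TNF against control, 13 genes, 0 tRNAs for Fer1 against control, 3 genes, 0 tRNAs for Lip1 against control and 11 genes, 0 mRNAs, 1 tRNA for TNF+Fer1 against TNF. It also called 0 genes, 0 mRNAs for TNF+Lip1 against TNF, 93 genes, 5 tRNAs for Lip1 against Fer1, 575 genes, 2 mRNAs for TNF+Lip1 against TNF+Fer1 and 6937 genes for TNF+Fer1 against Fer1. It also called 5943 genes for TNF+Lip1 against Lip1 and 0 genes for the Fer1 interaction. DESeq2 called 762 genes, 6 tRNAs for Fer1 against control, 495 genes, 1 rRNA, 11 tRNAs for Lip1 against control, 3981 genes, 1 rRNA for TNF+Fer1 against TNF and 2440 genes, 6 mRNAs, 3 tRNAs for TNF+Lip1 against TNF. It also called 199 genes, 7 tRNAs for Lip1 against Fer1, 445 genes, 2 mRNAs, 13 tRNAs for TNF+Lip1 against TNF+Fer1, 1309 genes, 5 mRNAs, 10 tRNAs for the Fer1 interaction and 1193 genes, 4 mRNAs, 1 rRNA, 6 tRNAs for the Lip1 interaction. With RLE scaling it called 0 mRNAs for TNF+Lip1 against TNF+Fer1 and 17 genes, 1 mRNA, 1 tRNA for the Fer1 interaction. With no filter on low counts it called 537 genes for TNF+Fer1 against TNF, 1 tRNA for Lip1 against Fer1, 105 genes, 0 mRNAs for TNF+Lip1 against TNF+Fer1 and 1 rRNA for TNF+Fer1 against Fer1. It also called 2 genes for the Lip1 interaction. With a filter of CPM of at least 1 in 3 libraries it called 204 genes, 4 tRNAs for Fer1 against control, 25 genes, 3 tRNAs for Lip1 against control, 117 genes for TNF+Lip1 against TNF and 37 genes, 1 mRNA, 1 tRNA for the Fer1 interaction. It also called 3 genes for the Lip1 interaction. Of 28 pairs of libraries with the same number, 1 correlated above 0.1 in the deviations from group means. In groups of 2 libraries these deviations mirror each other, so the correlations cannot decide whether library numbers mark pairs. With a replicate block the test called 22 genes, 0 tRNAs for Fer1 against control and 3 genes for Lip1 against control. It called 294 genes, 3 mRNAs, 5 tRNAs for TNF+Fer1 against TNF and 19 genes for TNF+Lip1 against TNF. It also called 10 genes, 0 tRNAs for Lip1 against Fer1, 67 genes, 0 mRNAs, 4 tRNAs for TNF+Lip1 against TNF+Fer1, 1 rRNA for TNF+Fer1 against Fer1 and 1781 genes for TNF+Lip1 against Lip1. It also called 0 genes for the Fer1 interaction. With TMM-scaled library sizes the mRNA share was 4.13% in TNF+Fer1 and 5.28% in Fer1, the rRNA share 0.314% in Lip1 and 0.387% in Fer1, and the tRNA share 0.0627% in TNF+Lip1, 0.0554% in TNF+Fer1 and 0.0919% in Lip1. Per kilobase, MT-CO1 made up 16.7% of the mRNA pool in controls. Leaving out each library in turn gave 1766 to 7380 genes, 3 to 5 mRNAs, 4 to 11 tRNAs for TNF against control, 13 to 295 genes, 0 to 1 tRNAs for Fer1 against control and 1 to 52 genes, 0 to 3 tRNAs for Lip1 against control. It gave 69 to 7373 genes, 2 to 6 mRNAs, 0 to 1 rRNAs, 2 to 19 tRNAs for TNF+Fer1 against TNF, 4 to 6797 genes, 0 to 6 mRNAs, 0 to 6 tRNAs, an mRNA median log2 fold change of -0.0942 to 0.122 for TNF+Lip1 against TNF and 3 to 17 genes, 0 tRNAs for Lip1 against Fer1. It gave 26 to 65 genes, 0 mRNAs, 0 to 4 tRNAs for TNF+Lip1 against TNF+Fer1, 1877 to 2870 genes, 1 rRNA for TNF+Fer1 against Fer1 and 1328 to 1485 genes, 8 to 9 tRNAs for TNF+Lip1 against Lip1. It gave 0 to 6147 genes, 0 to 6 mRNAs, 0 to 1 rRNAs, 0 to 12 tRNAs, an mRNA median log2 fold change of -0.000991 to 0.192 for the Fer1 interaction and 0 to 6147 genes, 0 to 4 mRNAs, 0 to 1 rRNAs, 0 to 8 tRNAs, an mRNA median log2 fold change of 0.0471 to 0.277 for the Lip1 interaction. The cause of these differences was not tested, beyond the smaller number of libraries in fits that leave some out.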
